A study of Vitis vinifera with 12 samples.

Results

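In Victoria, a table-grape cultivar of Vitis vinifera, 176 of 22580 gene IDs measured in fruit were high at 40 days after full bloom and much lower at 50, 60 and 80 days. Fruit was sequenced at these 4 ages, with 3 libraries per age (a, b and c) and 12 libraries in all. The groups compared after the 40-day sample are the fruit of 50, 60 and 80 days, all of the same cultivar and with no treatment named in the labels. Per the labels' protocols, several biological replicates were extracted one by one and the RNA was pooled afterwards, so the libraries of an age may share a pool, and the p-values then cover the spread between libraries alone, which may be technical. The values are FPKM, fragments per kilobase of transcript per 1000000 fragments.

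The 176 genes were chosen by their own values on the log2(FPKM + 1) scale. The 40-day mean had to lie at least 2 above the highest of the 3 later means, every 40-day value had to lie above every later value, and the highest age mean had to be from 5 to under 1000 FPKM. The difference between 40 days and the later ages is therefore given as a description, with no test. In what follows these genes are called the members.

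A grape berry grows in 2 phases separated by a lag. In the first, the berry is green and hard, its cells divide and then enlarge, and it stores organic acids and tannins. In the second, which opens with veraison, the berry softens, imports sugar and loses acid. Genes that serve the young fruit are known to be turned down as this programme proceeds. The labels give the age of the fruit in days and no stage, so the place of the 40-day sample in this course is not given in the sources used here.

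The files pair no ID with a gene name, and the reference gene table used here holds 0 of the 22580 IDs, so no member's function, protein or promoter is given. Of the members, 172 have IDs that begin with VIT_, in which the first number stands for the chromosome (00 for sequence placed on none). The other 4 are called newGene with a number (Grape_newGene_1220, Grape_newGene_1557, Grape_newGene_1992 and Grape_newGene_1996), against 789 such IDs in the whole table. The labelled tissue could not be checked against marker genes for the same reason.

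Absolute depth is unknown from an FPKM table. The steps between low values gave each library a depth of 0.847 to 1.74 times that of 40-day library a. The deepest was 50-day library a. One library of each age stood apart in the members. At 40 days, the SD over members of the log2 difference between libraries a and b was 0.24, against 0.88 between a and c and 0.84 between b and c. At 60 days it was 0.33 between b and c, against 0.65 and 0.60 between library a and those libraries. At 50 days it was 0.52 between b and c, against 0.75 and 0.86 with library a, and in 80-day fruit it was 0.56 between b and c, against 0.71 and 0.63 with library a. Over all 14743 tested genes, 40-day library c also differed more from a and b (SD 0.47 and 0.45) than these differed from each other (SD 0.29). Library a did so over all tested genes at the later ages too. At 50 days the SD was 0.39 and 0.42 with library a, against 0.37 between b and c. At 60 days it was 0.39 and 0.41 against 0.30, and at 80 days 0.47 and 0.52 against 0.40. Standing apart was thus not particular to the members. The number of members and their calls after 50 days are given with and without these 4 libraries.

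Together the members held a small part of the transcript pool. They summed to 14548, 14170 and 19260 FPKM in 40-day libraries a, b and c, which was 1.33%, 1.34% and 1.58% of all FPKM. At 50 days they held 0.239%, 0.166% and 0.190%, in 60-day fruit 0.136%, 0.129% and 0.131%, and in 80-day fruit 0.0580%, 0.0474% and 0.0369%. The mean share was 1.42% ± 0.14 (SD, n = 3) in 40-day fruit, 0.198% ± 0.037 in 50-day fruit, 0.132% ± 0.0035 in 60-day fruit and 0.0474% ± 0.011 in 80-day fruit. In bulk fruit, fewer cells of a type and less RNA per cell cannot be told apart.

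**Figure D1:**
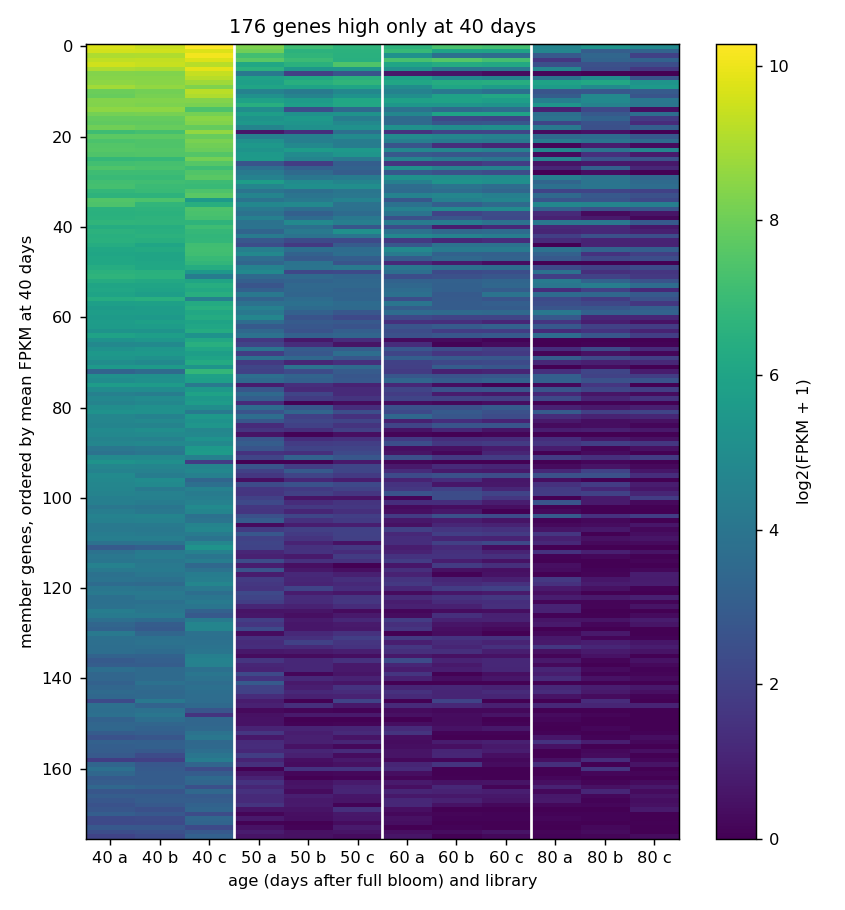
Level of each of the 176 members (rows, ordered by their mean in 40-day fruit) in each of the 12 libraries (columns, by age in days after full bloom and library letter), coloured by log2(FPKM + 1). All rows are brightest in the 3 libraries of 40 days, and most darken further toward 80 days, with members summing to 0.0369% to 0.0580% of all FPKM there.

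Members spanned a wide range of levels in 40-day fruit. Their 40-day means ran from 5.05 to 920 FPKM, with a median of 26.9 and quartiles of 13 and 95.0. Of the members, 72 were under 20 FPKM, 63 from 20 to under 100 and 41 at 100 or above. The median member mean was 2.87 FPKM in 50-day fruit, 1.80 in 60-day fruit and 0.766 in 80-day fruit. The difference between the 40-day mean and the highest later mean had a median of 2.47 and a maximum of 5.77 on the log2(FPKM + 1) scale. It was under 2.5 in 93 members, at least 3 in 35 and at least 4 in 10.

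Most members were reduced and not silent in 50-day fruit. The 50-day mean was a median 12.4% of the 40-day mean in FPKM (quartiles 8.05% and 15.9%, range 0.815% to 25.4%). At 60 days the median was 8.21% (quartiles 3.58% and 12.6%), and in 80-day fruit it was 3.08% (quartiles 0.893% and 6.65%). Members with under 5% left numbered 24 in 50-day fruit, 60 in 60-day fruit and 118 in 80-day fruit, and those with under 1% left numbered 1, 11 and 48. Means under 1 FPKM were found in 35 members in 50-day fruit, 60 in 60-day fruit and 96 in 80-day fruit. In all 9 later libraries, 62 members stayed at 1 FPKM or above, and 17 stayed under it. The name "shut down before 50 days" thus describes few of these genes in 50-day fruit, and "high only at 40 days" describes their rule.

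**Figure D2:**
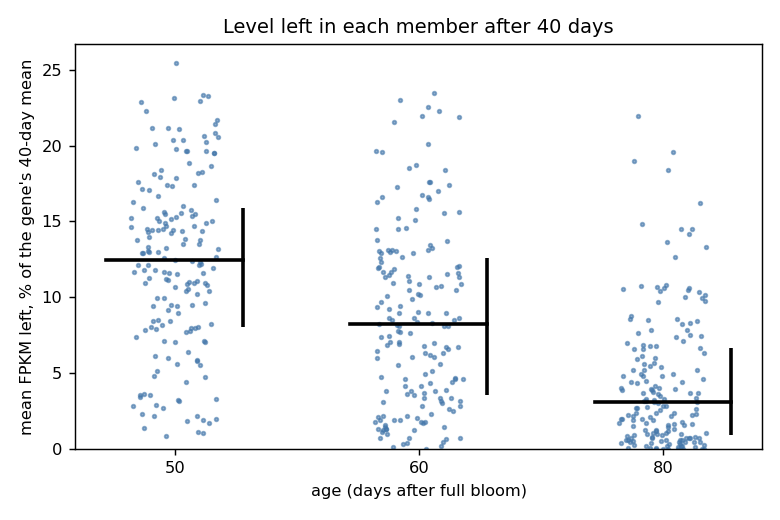
Mean FPKM left in each of the 176 members (points) at 50, 60 and 80 days after full bloom, as a percentage of that gene's mean in 40-day fruit; horizontal bars are medians and vertical bars run between the quartiles. The medians are 12.4%, 8.21% and 3.08%, and points between 20% and 25.4% remain in 50-day fruit.

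A value of exactly 0 in such a table can be a failed estimate, so it is reported as listed at 0. No member was listed at 0 in all 9 later libraries, 131 were listed above 0 in every one of them, and 45 were at 0 in at least 1. Values listed above 0 include some that are practically 0, as in 80-day library a of VIT_10s0003g02900. Being listed above 0 thus does not show that a gene was detected. The members listed at 0 numbered 2 to 5 per library in 50-day fruit, 4 to 13 in 60-day fruit and 21 to 30 in 80-day fruit. Over all IDs the share at 0 was 18.7% to 21.6% in every library. All IDs include those that did not reach 1 FPKM in 3 libraries, while the rule required a 40-day level of the members. This share is therefore no background for the members. In all 3 libraries of 80 days, 5 members were listed at 0 (VIT_19s0027g01890, VIT_02s0154g00320, VIT_03s0088g00290, VIT_01s0011g02360 and VIT_18s0122g00290). These were named after their values were seen. The highest of them, VIT_19s0027g01890, had 36.6, 40.7 and 70.2 FPKM in 40-day fruit, 2.17, 0.573 and 1.49 in 50-day fruit and 0.225, 0.246 and 0.0709 in 60-day fruit. VIT_01s0011g02360 was listed at 0 in 60-day fruit as well. It had 8.12, 13.3 and 11.9 FPKM in 40-day fruit and 6.58, 0.625 and 0.511 in 50-day fruit, so 50-day library a lay near the 40-day level.

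The 8 members with the highest 40-day mean kept different amounts of it. VIT_18s0001g14270, the highest, had 819, 698 and 1242 FPKM in 40-day fruit, 306, 137 and 102 in 50-day fruit, 99.3, 158 and 141 in 60-day fruit, and 23.9, 38.6 and 28.1 in 80-day fruit. Its 50-day and 60-day libraries overlapped, and its 80-day libraries lay below both. VIT_04s0008g05010 had 760, 735 and 849 FPKM in 40-day fruit, 266, 96.8 and 94.5 in 50-day fruit, 118, 60.7 and 59.6 in 60-day fruit, and 24.4, 7.27 and 8.65 in 80-day fruit. In this gene library a was the highest of its age at 50, 60 and 80 days. VIT_03s0038g01510 had 519, 486 and 933 FPKM in 40-day fruit and 92.5, 41.9 and 42.4 in 50-day fruit. Its 60-day libraries (35.8, 15.6 and 17.0) and 80-day libraries (25.2, 4.33 and 2.13) overlapped. VIT_05s0020g01830 had 340, 340 and 578 FPKM in 40-day fruit, 59.0, 67.9 and 91.7 in 50-day fruit, 55.3, 27.9 and 23.3 in 60-day fruit, and 14.2, 29.1 and 5.34 in 80-day fruit. The other 4, VIT_12s0059g01240, VIT_11s0016g05840, VIT_06s0061g00730 and VIT_04s0008g05640, are described below.

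The 6 members with the largest difference were at a few percent of their 40-day level by 50 days. VIT_04s0008g05640 was at 1.91% of its 40-day mean of 440 FPKM by 50 days, 0.104% by 60 days and 0.0107% by 80 days. VIT_03s0063g02380 was at 2.15% of 225 FPKM by 50 days and 0.10% by 80 days. VIT_18s0001g09360 had 143, 149 and 190 FPKM in 40-day fruit, 5.34, 2.5 and 7.52 in 50-day fruit, 2.03, 1.98 and 2.79 in 60-day fruit, and 0.439, 0.610 and 0.571 in 80-day fruit. The 80-day libraries lay below all others, while those of 50 and 60 days overlapped. VIT_04s0008g03550 had 27.2, 27.9 and 26.9 FPKM in 40-day fruit, and no later library reached 0.5 FPKM (0.448, 0.0624 and 0.330 in 50-day fruit). VIT_02s0154g00260 had 23.1, 25.9 and 50.0 FPKM in 40-day fruit, and 1.43, 0.0379 and 0.238 in 50-day fruit. VIT_04s0008g04060 had 374, 374 and 167 FPKM in 40-day fruit, and 31.8, 4.33 and 10.5 in 50-day fruit. Among these 6 genes, the 40-day libraries were within 2 FPKM of each other in VIT_04s0008g03550 alone.

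The rule capped the later ages without setting their order. Every later value had to lie below every 40-day value and the highest later mean had to be low, which removes genes that rose again toward their 40-day level. How few members rose is therefore partly fixed by the rule, and it is given as a description. The change after 50 days was tested in a fit of limma to all 14743 genes that reached 1 FPKM in 3 or more libraries. A gene was called at a Benjamini-Hochberg adjusted p under 0.05 with a difference of at least 1 on the log2(FPKM + 1) scale. Each gene had 1 spread over all 12 libraries, which includes the 40-day values that took part in choosing the members. The SE and p-values of single genes are from this fit unless another is named, so they rest partly on those values. All 176 members entered that fit, 40 of them through their 40-day values alone, since they reached 1 FPKM in fewer than 3 later libraries. These 40 had little room left to fall, and 0, 1 and 3 of them were called in the comparisons of 60 over 50, 80 over 60 and 80 over 50 days. The 3 comparisons share libraries with each other, so their counts are not independent.

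Most calls among the members after 50 days were downward. From 50 to 60 days, 22 of the 176 (12.5%) fell and 0 rose, against 2.31% and 2.01% of all tested genes. At an unadjusted p under 0.05, 43 members were lower and 10 higher. From 60 to 80 days, 44 members (25%) fell and 1 (0.568%) rose, against 6.8% and 2.68% of all tested genes. At 80 days compared with 50 days, 78 members (44.3%) were lower and 0 higher, against 8.15% and 3.66% of all tested genes. At an unadjusted p under 0.05, 106 were lower and 1 higher. The counts at an unadjusted p were not made over all tested genes, so they cannot be set against a background.

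In a fit to the 9 libraries of 50, 60 and 80 days alone, a gene had to pass the filter on the later ages, which 136 members did. Of these, 23 (16.9%) fell and 0 rose from 50 to 60 days, where 2.33% and 2.07% of the 14293 genes tested did so. From 60 to 80 days 45 (33.1%) fell and 1 rose, against 7% and 2.71%. From 50 to 80 days 75 (55.1%) fell and 0 rose, against 8.29% and 3.76%. The median of the 136 changed by -0.35 from 50 to 60 days, -0.63 from 60 to 80 days and -1.20 from 50 to 80 days on the log2(FPKM + 1) scale, and the median of all genes in that fit by -0.01, -0.01 and -0.04.

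Without the 4 libraries that stood apart, an alternative chosen after seeing the data, 2 libraries remained per age and members also rose from 50 to 60 days. Both 40-day libraries counted toward the filter of 1 FPKM in 3 libraries, so members passed it partly through their 40-day values, and these shares rest on that. Of the 147 members tested, 24 (16.3%) fell and 7 (4.76%) rose, against 2.91% and 2.74% of all 14263 tested genes. From 60 to 80 days 50 (34%) fell and 1 (0.68%) rose, against 7.05% and 2.76%. From 50 to 80 days 74 (50.3%) fell and 0 rose, against 8.27% and 3.73%. The numbers that fell were within 1.5 times of those with all libraries, while the number that rose from 50 to 60 days was not. Members called higher from 50 to 60 days also numbered 3 of 176 without 60-day library a, where 334 of all 14680 tested genes were higher. They numbered 3 of 176 with sample weights (375 of 14743 genes) and 2 of 176 without 50-day library a (289 of 14695). In each of these settings the share of members was below that of all tested genes.

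The 7 that rose without those libraries are named here after their values were seen: VIT_03s0017g02260, VIT_03s0091g00390, VIT_04s0044g01410, VIT_10s0003g02900, VIT_14s0066g00850, VIT_15s0107g00550 and VIT_19s0014g03660. VIT_15s0107g00550 had 31.0, 31.3 and 44.0 FPKM in 40-day fruit, 5.64, 1.33 and 1.32 in 50-day fruit, 3.37, 5.07 and 5.32 in 60-day fruit, and 5.41, 3.37 and 2.71 in 80-day fruit. Library a was the highest in 50-day fruit and the lowest in 60-day fruit, and the ages overlapped because of it. Its difference from 50 to 60 days was 0.74 ± 0.37 in all libraries (limma adjusted p = 0.187) and 1.41 ± 0.12 without the 4 (limma adjusted p = 0.000889). The 4 libraries were left out because of their spread in the members themselves. The p-values and calls without them, here and elsewhere, are therefore a description and no support for a rise.

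VIT_04s0044g01410 did not depend on library a for the order of the ages. It had 94.4, 98.9 and 170 FPKM in 40-day fruit, 17.1, 12.1 and 13.1 in 50-day fruit, 22.0, 28.3 and 29.4 in 60-day fruit, and 7.67, 4.90 and 5.35 in 80-day fruit. All 60-day values lay above all 50-day values. The difference in all libraries, 0.87 ± 0.23 (limma adjusted p = 0.023), was under the minimum of 1, and without the 4 libraries it was 1.13 ± 0.089 (limma adjusted p = 0.000707). From 60 to 80 days it fell by 1.99 ± 0.23 in all libraries (limma adjusted p = 9.14e-05).

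**Figure D3:**
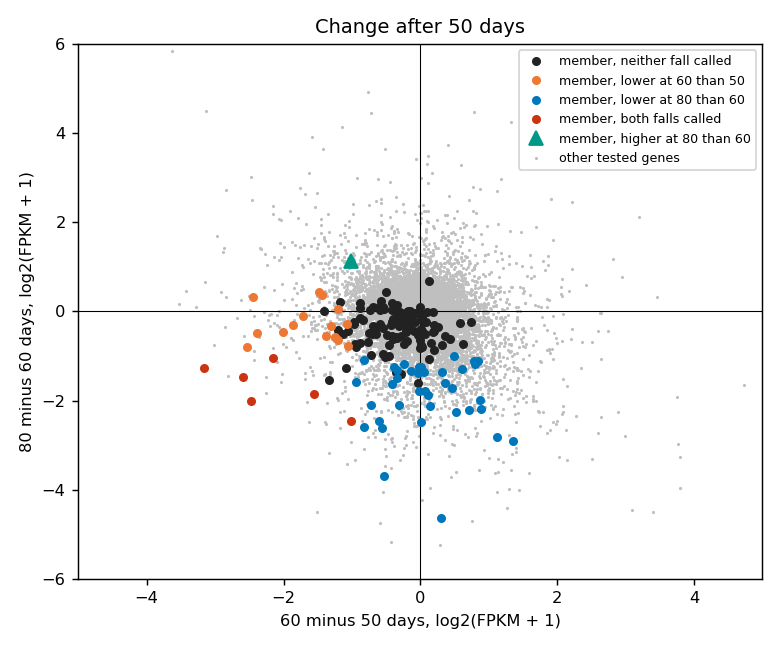
Change of each gene from 50 to 60 days (horizontal axis) and from 60 to 80 days (vertical axis), as differences of mean log2(FPKM + 1); members are coloured by the limma calls and grey points are the other tested genes, 1 of which lies outside the axes. Both differences use the 60-day libraries; members lie mostly below the horizontal 0 line, down to -4.64, and 1 member (triangle) was higher at 80 than at 60 days.

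By the order of their means alone, without a test, 107 members had lower means at every step, 45 were higher at 60 than at 50 days and lower again in 80-day fruit, and 22 were lower at 60 than at 50 days and higher at 80 days. VIT_00s0203g00150 had rising means from 50 to 80 days, and VIT_01s0011g02360 had equal means at 60 and 80 days. The highest later mean was in 50-day fruit in 128 members, in 60-day fruit in 45 and in 80-day fruit in 3. These orders were not counted over all tested genes, so whether they are particular to the members is not known.

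The largest falls from 50 to 60 days were in 4 members whose 60-day libraries all lay below their 50-day libraries. VIT_07s0104g01800 had 183, 173 and 263 FPKM in 40-day fruit, 43.6, 26.9 and 18.8 in 50-day fruit, 5.29, 1.59 and 1.07 in 60-day fruit, and 0.0951, 0.737 and 0.239 in 80-day fruit. Between 50 and 60 days it fell by 3.17 ± 0.40 (SE, log2 scale, limma adjusted p = 0.000722). Each age lay wholly below the one before.

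VIT_12s0059g01240 had 515, 529 and 1088 FPKM in 40-day fruit, 142, 104 and 92.1 in 50-day fruit, 35.7, 12.9 and 11.5 in 60-day fruit, and 6.32, 9.52 and 2.92 in 80-day fruit. Here too no 2 ages overlapped. It fell by 2.59 ± 0.46 from 50 to 60 days (limma adjusted p = 0.00357) and by 1.47 ± 0.46 from 60 to 80 days (limma adjusted p = 0.029). VIT_14s0083g00260 had 68.4, 66.7 and 109 FPKM in 40-day fruit, 9.55, 13.9 and 5.41 in 50-day fruit and 1.36, 0.689 and 0.306 in 60-day fruit, and every 80-day library was below 0.0001 FPKM. It fell by 2.53 ± 0.30 from 50 to 60 days (limma adjusted p = 0.000587).

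VIT_18s0001g13230 was the steadiest of these 4 genes in 40-day and 60-day fruit. It had 175, 180 and 184 FPKM in 40-day fruit, 44.6, 30.5 and 40.5 in 50-day fruit, 6.24, 5.76 and 6.05 in 60-day fruit, and 0.225, 1.68 and 0.658 in 80-day fruit. It fell by 2.48 ± 0.23 from 50 to 60 days (limma adjusted p = 0.000194) and by 2.0 ± 0.23 from 60 to 80 days (limma adjusted p = 9.02e-05). Its fall of 4.47 from 50 to 80 days was the largest of any member (limma adjusted p = 3.6e-07). In the fit to the libraries of 50, 60 and 80 days alone the fall was the same (limma adjusted p = 8.38e-06).

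In other members the libraries of 50 and 60 days overlapped and the fall came later. VIT_11s0016g05840 had 620, 646 and 851 FPKM in 40-day fruit, 199, 127 and 87.4 in 50-day fruit, 154, 187 and 145 in 60-day fruit, and 2.05, 8.64 and 8.32 in 80-day fruit. The 50-day and 60-day libraries overlapped, and the 80-day libraries were lower than any of them by more than 10 times. It fell by 4.64 ± 0.40 from 60 to 80 days (limma adjusted p = 1.71e-05), more than any other member in that interval. VIT_06s0061g00730 had 734, 690 and 585 FPKM in 40-day fruit, 69.2, 94.1 and 172 in 50-day fruit, 64.6, 79.2 and 72.4 in 60-day fruit, and 4.64, 4.88 and 4.46 in 80-day fruit. It fell by 3.69 ± 0.25 from 60 to 80 days (limma adjusted p = 4.39e-06), after a difference of -0.53 ± 0.25 from 50 to 60 days that did not pass the test (limma adjusted p = 0.163).

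In 2 further members with large falls after 60 days, the mean was higher in 60-day than in 50-day fruit. VIT_17s0000g06210 had 174, 158 and 136 FPKM in 40-day fruit, 12.6, 7.63 and 8.42 in 50-day fruit, 33.8, 21.8 and 22.3 in 60-day fruit, and 1.17, 8.09 and 1.24 in 80-day fruit. All 60-day values lay above all 50-day values, yet the difference of 1.35 ± 0.45 missed the threshold (limma adjusted p = 0.0573). It passed with the omission of any 1 of the 80-day libraries (limma adjusted p from 0.0023 to 0.0483), where the estimate stayed at 1.35. These omissions changed the spread and no value of 50 or 60 days. It also passed with a pseudocount of 5 (1.08, limma adjusted p = 0.0175) and with sample weights (1.31, limma adjusted p = 0.0375). No other setting called this rise. The fall of 2.90 ± 0.45 from 60 to 80 days passed the threshold (limma adjusted p = 0.000624). VIT_10s0003g02900 had 81.3, 64.4 and 139 FPKM in 40-day fruit, 4.46, 2.27 and 6.78 in 50-day fruit, 5.96, 13.5 and 13.2 in 60-day fruit, and 1.68e-05, 1.03 and 1.04 in 80-day fruit. Its 50-day and 60-day libraries overlapped, with a difference of 1.12 ± 0.42 (limma adjusted p = 0.0854). Without the 4 libraries that stood apart the difference was 1.51 ± 0.35 (limma adjusted p = 0.0236). The rise was also called with the replicate block, with sample weights and without 60-day library a, and in no other setting. VIT_10s0003g02900 fell by 2.81 ± 0.42 from 60 to 80 days (limma adjusted p = 0.000482).

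In the fit to all 12 libraries with a pseudocount of 1 and no block or sample weights, a single member was called higher at a later age after 40 days. Other settings with all 12 libraries called other members higher from 50 to 60 days, as given at the end. VIT_04s0008g04000 had 168, 109 and 86.4 FPKM in 40-day fruit, 26.2, 27.9 and 13.7 in 50-day fruit, 13.1, 7.59 and 10.6 in 60-day fruit, and 25.7, 25 and 20.5 in 80-day fruit. The 80-day libraries lay above the 60-day libraries and overlapped those of 50 days. It fell by 1.01 ± 0.29 from 50 to 60 days (limma adjusted p = 0.0333) and rose by 1.14 ± 0.29 from 60 to 80 days (limma adjusted p = 0.0116). The rise lost its call with a pseudocount of 5 (0.908), with each library scaled to the same sum (0.982) and without 60-day library b (0.944, limma adjusted p = 0.0502). Without the 4 libraries that stood apart it was 1.24 (limma adjusted p = 0.0282). It was the member with the second-largest share left in 80-day fruit, 19.6% of its 40-day mean.

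In 2 further members the highest later mean was in 80-day fruit; they are named here after their values were seen. VIT_00s0203g00150 had 63.0, 63.5 and 84.5 FPKM in 40-day fruit, 5.52, 10.1 and 10.0 in 50-day fruit, 9.86, 7.81 and 9.74 in 60-day fruit, and 15.2, 19.5 and 11.6 in 80-day fruit. It kept 22.0% of its 40-day mean in 80-day fruit, the only member over 20%. VIT_07s0005g02450 had 78.7, 72.5 and 63.5 FPKM in 40-day fruit, and 17.2, 8.71 and 5.18 in 80-day fruit, where library a alone was above the 50-day libraries of 7.59, 8.78 and 9.67. Neither was called after 50 days: the difference of VIT_00s0203g00150 at 80 over 50 days, 0.80 ± 0.23 (limma adjusted p = 0.0162), was under the minimum of 1, and that of VIT_07s0005g02450 was 0.09 ± 0.29 (limma adjusted p = 0.816).

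Within the 40-day sample itself, the members split by how library c stood to libraries a and b. Library c was the highest of the 3 in 116 members (65.9%), against 43.7% of all tested genes. It was the lowest in 45 members (25.6%), against 37.8% of all tested genes. In 15 of the 176 members it lay between a and b or equalled 1 of them, against 2727 of all 14743 tested genes. On the log2(FPKM + 1) scale, c was at least 1 above the mean of a and b in 28 members (15.9%) and at least 1 below it in 12 (6.82%), against 2.15% and 1.55% of all tested genes. With each library scaled to the same sum, c was highest in 101 members (57.4%) and in 24.1% of all tested genes. The 40-day values took part in choosing the members, so these shares are a description.

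**Figure D4:**
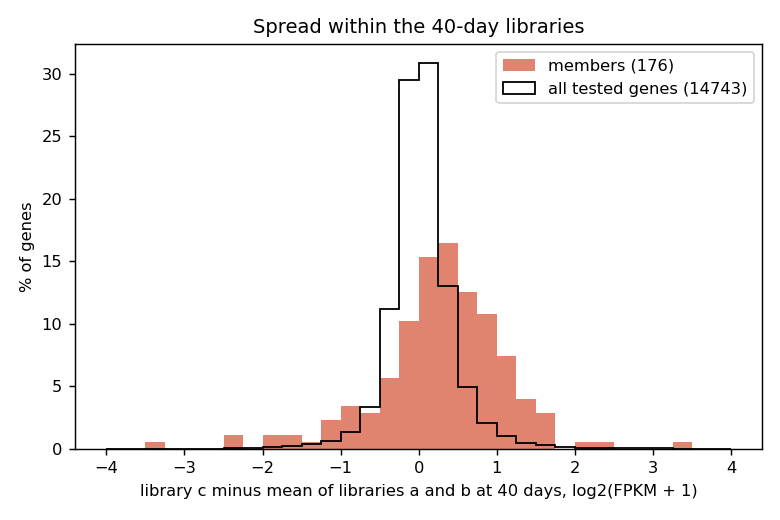
Difference of library c from the mean of 40-day libraries a and b, in log2(FPKM + 1), for the 176 members (filled) and all 14743 tested genes (line), as a percentage of each; values past 4 are drawn at 4. The members' distribution is wider and has its median at 0.38, against 0.02 for all tested genes, and reaches from -3.40 to 3.40.

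The largest variation in 40-day fruit, among members of at least 20 FPKM, came from library c in both directions. VIT_00s0323g00060 had 8.71, 10.9 and 112 FPKM in 40-day fruit (coefficient of variation 135%), and 2.93, 4.11 and 6.69 in 50-day fruit. VIT_08s0007g00330 went the other way, with 38.2, 33.8 and 2.5 FPKM in 40-day fruit, 0, 0 and 0.607 in 50-day fruit and at most 0.143 in 80-day fruit. In libraries a and b of these genes the 40-day values are alike, and library c differs from both by more than 10 times.

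VIT_11s0052g01650 had 13.5, 15.3 and 48.8 FPKM in 40-day fruit, and VIT_12s0035g00880 had 26.8, 28.3 and 89.6. Both were below 4 FPKM in every later library. By contrast, VIT_16s0022g00670 had 276, 286 and 280 FPKM in 40-day fruit (coefficient of variation 1.74%), the steadiest of the members of at least 20 FPKM. At 50 days it had 53.7, 35.8 and 37.8 FPKM, in 60-day fruit 25.8, 61.4 and 60.7, and in 80-day fruit 12, 6.38 and 12. It fell by 2.12 ± 0.32 from 60 to 80 days (limma adjusted p = 0.000471). VIT_04s0008g03550, described above, was the next steadiest (1.84%).

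The later ages also had 1 library that was high in most members. Library a was the highest of its age in 106 members (60.2%) in 50-day fruit, 98 (55.7%) in 60-day fruit and 97 (55.1%) in 80-day fruit, against 32.8%, 36.0% and 43.4% of all tested genes. The part of sequencing depth, which was highest in 50-day library a, was not tested. Without 40-day library c and library a at 50, 60 and 80 days, the rule gave 172 genes, of which 148 are among the 176. Without 40-day library c alone it gave 165, of which 147 are members.

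By the chromosome number in their IDs, members were found on every chromosome. They were 1.19% of the tested genes over the whole table. The highest shares were on chromosome 2 (15 members, 2.73% of its 550 tested genes), chromosome 16 (12 members, 2.43%) and chromosome 9 (13 members, 2.36%). The lowest were on chromosome 19 (3 members, 0.507%) and chromosome 13 (4 members, 0.526%). These shares were not tested against each other.

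Some members stood next to each other in the order of IDs. Of the 172 members with VIT_ IDs, 12 (6.98%) had another member as the adjacent ID, in 6 pairs with consecutive numbers, and no run was longer than 2. Among all 14416 tested VIT_ IDs, 1.62% had a member as the adjacent ID. In a set of genes that were low only at 80 days by a mirrored rule (101 genes, 99 with VIT_ IDs), 4 (4.04%) were next to each other, and in a set low only at 40 days (30 genes, 29 with VIT_ IDs), 2 (6.90%). Of all 21791 VIT_ IDs, 1.53% were next to a member, 0.872% next to a gene low only at 80 days and 0.266% next to a gene low only at 40 days. Each set thus exceeded its own background, and the members were not set apart from the other sets by this. The sets differ in size, and a larger set has more neighbours by size alone. How fragments of near-identical neighbouring copies were shared out is not given in the sources used here, so values of such pairs are uncertain if the pairs are copies.

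**Figure D5:**
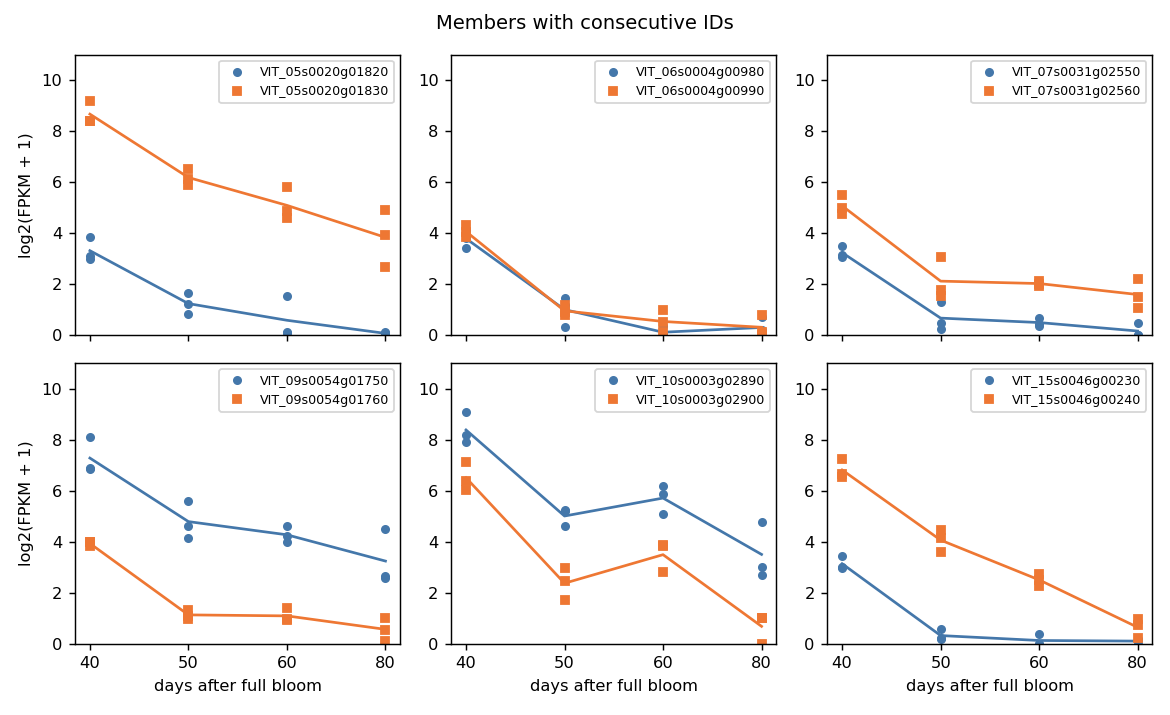
Level of the 6 pairs of members with consecutive IDs in each library (points) and their means (lines), as log2(FPKM + 1), by age in days after full bloom (ages are drawn at equal steps). The 2 genes of a pair differ in level in 40-day fruit by up to 44.8 times in mean FPKM (VIT_05s0020g01820 and VIT_05s0020g01830), and VIT_10s0003g02890 and VIT_10s0003g02900 both have a higher mean at 60 than at 50 days.

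In the pair on chromosome 10 both genes had a higher mean in 60-day than in 50-day fruit. VIT_10s0003g02890 had 237, 290 and 535 FPKM in 40-day fruit, 35.6, 23.3 and 36.6 in 50-day fruit, 32.9, 57.8 and 71.4 in 60-day fruit, and 7.13, 26.7 and 5.49 in 80-day fruit. It fell by 2.21 ± 0.50 from 60 to 80 days (limma adjusted p = 0.00608), as its neighbour VIT_10s0003g02900 did. In both genes library c was highest in 40-day fruit, and library b or c in 60-day fruit.

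In the pair on chromosome 15 the genes differed in level after 40 days. VIT_15s0046g00240 had 92.5, 100.02 and 150 FPKM in 40-day fruit, 21.3, 11 and 16.5 in 50-day fruit, 4.73, 5.59 and 3.84 in 60-day fruit, and 0.965, 0.672 and 0.165 in 80-day fruit. It fell from 50 to 60 days by 1.56 ± 0.26 (limma adjusted p = 0.003) and from 60 to 80 days by 1.86 ± 0.26 (limma adjusted p = 0.000346). VIT_15s0046g00230 had 9.80, 7.05 and 6.86 FPKM in 40-day fruit and no later value of 0.5 FPKM or more, so that little was left to change.

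VIT_05s0020g01820 had 6.88, 7.56 and 13.6 FPKM in 40-day fruit and 2.13, 0.790 and 1.35 in 50-day fruit, far below its neighbour VIT_05s0020g01830. Both were lower at 80 than at 50 days, by 1.17 ± 0.38 (limma adjusted p = 0.0267) and by 2.35 ± 0.49 (limma adjusted p = 0.00275) on the log2 scale. VIT_09s0054g01750 had 114, 118 and 273 FPKM in 40-day fruit, and its neighbour VIT_09s0054g01760 had 13.2, 14.7 and 15. Library c stood apart in the first of these and not in the second.

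VIT_07s0031g02560 had 26.3, 30.3 and 43.6 FPKM in 40-day fruit and VIT_07s0031g02550 had 7.33, 7.90 and 10.3. On chromosome 6, VIT_06s0004g00980 had 16.6, 9.62 and 13.1 FPKM in 40-day fruit and VIT_06s0004g00990 had 13.4, 15.3 and 18.9. None of these 4 genes was called after 50 days. Genes next to members that were no members themselves were close to the background: 25 of 222 tested (11.3%) were at least 1 lower at 50 than at 40 days on the log2 scale, against 8.77% of all tested genes.

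The genes at the edge of the rule differed little from those outside it. The 2 members nearest to the required difference of 2 were VIT_18s0001g15650 and VIT_17s0000g05640, both at 2.01. VIT_17s0000g05640 had 2.69, 2.87 and 19.2 FPKM in 40-day fruit, so its mean rested on library c. VIT_18s0001g15650 had 6.56, 7.65 and 22.3 FPKM in 40-day fruit and 4.16, 1.06 and 1.2 in 60-day fruit. Just outside were VIT_10s0092g00640, with 6.65, 5.90 and 6.81 FPKM in 40-day fruit, and VIT_17s0000g07950, with 20.2, 21.0 and 42.1, both with differences that round to 2.0. The level limit of 1000 FPKM kept out VIT_15s0021g00940 (980, 1017 and 1356 FPKM in 40-day fruit). Overlap between ages kept out VIT_01s0011g05190 (1.05, 0.459 and 46.1 FPKM in 40-day fruit), whose 40-day mean rested on library c.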

How the data were processed

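The authors deposited 1 table of FPKM values (per kilobase of transcript and 1000000 fragments), covering 22580 gene IDs in 12 polyadenylated-RNA libraries. Per the submitters' processing notes, Trimmomatic 0.36, FastQC, TopHat2, Cufflinks and edgeR were used, with no roles given; genome build, annotation and settings: not given in the sources used here. All 12 columns were matched to samples by the description in the labels, and 0 were left over.

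The members and all lists and rules were chosen with earlier results of these data known. All fits used log2(FPKM + 1), a pseudocount of 1, so the change of genes with low values is understated. The 14743 genes that reached 1 FPKM in 3 or more libraries were fitted with limma 3.58.1 in R 4.3.3, with 1 mean per age and an intensity trend. The fit was tested on simulated data. Genes were called at a Benjamini-Hochberg adjusted p under 0.05 and a difference of at least 1. Python 3.11.15, numpy 2.4.6 and pandas 2.3.3 were used. Relative depth was read from the steps between values under 0.3 FPKM, and absolute depth is unknown. Gene lists by product name could not be filled, since no ID has a name.

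Members were named by rule: the 8 highest at 40 days, the 6 largest differences, up to 4 calls per direction in each comparison after 50 days, up to 6 listed at 0 in every later library (there were 0), the 2 nearest the threshold on each side, the pairs of consecutive IDs (all 6, as all are of equal length), and the 4 most and 2 least variable at 40 days.

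The alternatives were only the 9 later libraries, pseudocounts of 0.1 and 5, a 5 FPKM filter or none, libraries rescaled by median of ratios or to equal sums, a replicate block by letter, no intensity trend, no minimum difference, sample weights, other thresholds of the rule, other definitions of neighbouring IDs, each library left out in turn and, chosen after seeing the data, the 4 libraries that stood apart left out together.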

Additional observations from a re-analysis of the deposited data

How the results depend on the processing

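With a pseudocount of 5, 67 genes met the rule. Of the 176 members, 12 passed for 60 over 50 days (11 lower and 1 higher), against 172 lower and 127 higher of all 14743 tested genes. For 80 over 60 days 20 were lower and 0 higher, against 514 and 221. For 80 over 50 days 36 were lower and 0 higher, against 627 and 310. This pseudocount lowers the fold of weakly expressed genes by its construction. With a pseudocount of 0.1, 70 members were called from 60 to 80 days (69 lower and 1 higher), against 1377 lower and 473 higher of all 14743 tested genes. A required difference of 1.5 gave 362 genes and one of 3 gave 35. Scaling to a sum of 1000000 put the median of all tested genes at -0.25 on the log2 scale for 80 over 50 days, where it was -0.05 on the deposited values. It left 82 members lower and 0 higher, against 1581 and 343 of all 14455 tested genes. It put library c highest at 40 days in 57.4% of members and in 24.1% of all tested genes, where the cause was not tested. With up to 4 other IDs allowed in between, 18% of members had another member near by (6.99% of all VIT_ IDs). The other alternatives, and the omission of any single library, kept the number of members and the calls in both directions together within 1.5 times. The calls upward alone did not stay at 0 for 60 over 50 days. They were 0 to 3 with 1 library left out, against 226 to 334 of all 14537 to 14695 tested genes. They were 1 with the replicate block (291 of 14743 genes) or a pseudocount of 0.1 (412), and 3 with sample weights (375) or no minimum difference (1311). Without the 4 libraries that stood apart they were 7 of 147 members, against 391 of 14263 genes. For 80 over 50 days 1 member was higher without 50-day library a (VIT_15s0107g00550), against 559 of 14695 genes.

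Replicate letters pair no samples in the labels: 4 of 18 same-letter correlations of deviations were over 0.1, and 6 were best with their own letter. All of these were among 50, 60 and 80 days and none with 40 days. Between 50 and 60 days each letter was best with its own (0.133, 0.0536 and 0.189 for a, b and c). Whether the letters pair libraries of the later ages is therefore not known. With the replicate block, 23 members were lower and 1 higher from 50 to 60 days, against 337 and 291 of all 14743 tested genes. From 60 to 80 days 44 were lower and 1 higher, against 1004 and 389. From 50 to 80 days 80 were lower and 0 higher, against 1197 and 538. Of 312 repeats of the 13 named calls, 309 kept direction and call; the 3 exceptions all concern VIT_04s0008g04000 from 60 to 80 days. Without counts, depth sets a limit for low members that cannot be stated.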
